A study of Mus musculus with 4 samples.

Results

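Matrix metalloproteinases (MMPs) and the tissue inhibitors of metalloproteinases (TIMPs) were followed in the lungs of mice given amiodarone, dabigatran or both drugs. The 10 genes described are Mmp2, Mmp3, Mmp8, Mmp9, Mmp12, Mmp14, Mmp19, Timp1, Timp2 and Timp3, taken by their symbols from a deposited table of 17780 genes. MMPs are zinc-dependent enzymes, secreted or anchored in the cell membrane, that cut collagens, elastin and other proteins of the extracellular matrix and also release or inactivate cytokines. Most are made as inactive proenzymes that other proteases activate, and TIMPs block the active enzymes by binding to the catalytic zinc. In the lung, fibroblasts and endothelial cells are known sources of Mmp2 and Mmp14, whereas macrophages and neutrophils that enter inflamed tissue bring Mmp12, Mmp8 and Mmp9.

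The 4 groups were C57BL/6 mice that received vehicle (a carboxymethylcellulose suspension), the antiarrhythmic drug amiodarone, the thrombin inhibitor dabigatran, or amiodarone with dabigatran, for 28 days according to the labels. Per the study's methods the animals were males of the C57BL/6J strain, a few weeks old on purchase, dosed orally on weekdays, and the lungs were collected slightly earlier than the labels state. Each group is represented by 1 RNA-Seq library from left lung, and how many mice contributed to a library is not given in the sources used here. Amiodarone can cause interstitial lung disease, and the comparisons address which transcripts differ with the drug and whether dabigatran given at the same time alters them. Total estimated reads lay between 17498486 and 18903401 per library, and the 8 markers of alveolar epithelium were above 0 in every library, with Sftpc (surfactant protein C) between 19587 and 20385 FPKM.

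Levels are given as FPKM, fragments scaled to transcript length and library depth, which allows levels of different genes to be set side by side. A ratio is the FPKM of one library divided by that of another, followed by its 95% interval (exact Clopper-Pearson, from the estimated reads of both libraries). A ratio is called beyond counting error where this interval excludes 1. Genes with more reads pass this at smaller ratios, so shares of genes beyond counting error depend on read depth. The 10 genes were chosen with earlier results of these data known, and shares of all genes stand beside them as description only. With no replicates, the intervals cover counting error only, do not include the variation between mice, and compare libraries rather than treatments. Each comparison has 1 library on either side and was given no test and no p-value, and an additive fit over the 4 libraries was not run. All 10 genes reached at least 1 FPKM in all 4 libraries, so none was lost to the filter of 1 FPKM in 1 of the libraries compared. In whole-lung RNA, fewer cells of a type and less RNA per cell cannot be told apart.

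Mmp12, Mmp3 and Mmp8 lie in the same gene cluster on mouse chromosome 9 and differed from each other in the direction or the course of their levels, so the sequences upstream of their starts are shown. The windows are the 250 bases before each RefSeq transcript start on the plus strand of GRCm38.p6, written 5′ to 3′, at chr9:7347124-7347373 for Mmp12 (the downstream of its 2 listed starts, shown for the match it shares with Mmp3), chr9:7445572-7445821 for Mmp3 and chr9:7558179-7558428 for Mmp8. Capitals mark matches, on either strand, to TGANTCA (the AP-1 motif), AGGAAG (the PEA3/ETS motif, CTTCCT when read on the other strand) and TATAAA.
Mmp12 (start at 7347374): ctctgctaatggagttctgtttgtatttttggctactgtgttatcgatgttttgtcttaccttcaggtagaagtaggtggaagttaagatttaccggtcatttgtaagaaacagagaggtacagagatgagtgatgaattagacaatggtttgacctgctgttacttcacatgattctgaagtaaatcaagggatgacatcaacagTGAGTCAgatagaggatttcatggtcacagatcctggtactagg
Mmp3 (start at 7445822): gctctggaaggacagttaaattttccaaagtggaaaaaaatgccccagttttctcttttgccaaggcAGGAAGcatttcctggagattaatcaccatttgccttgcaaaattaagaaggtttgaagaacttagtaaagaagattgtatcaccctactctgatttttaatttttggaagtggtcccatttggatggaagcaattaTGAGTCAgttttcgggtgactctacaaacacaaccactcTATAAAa
Mmp8 (start at 7558429): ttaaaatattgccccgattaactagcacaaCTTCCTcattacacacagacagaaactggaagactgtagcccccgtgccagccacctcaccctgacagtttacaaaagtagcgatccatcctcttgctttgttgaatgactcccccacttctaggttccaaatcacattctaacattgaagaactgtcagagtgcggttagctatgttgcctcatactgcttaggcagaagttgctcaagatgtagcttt
The Mmp12 and Mmp3 windows held the same 7 bases, TGAGTCA, at nearly the same distance, 44 to 38 bases before the Mmp12 start and 46 to 40 bases before the Mmp3 start. The Mmp3 window also held TATAAA from 7 to 2 and AGGAAG from 183 to 178 bases before the start. The Mmp8 window held no TGANTCA and had its CTTCCT from 220 to 215 bases before the start. Among 32851 RefSeq windows of the same length, 6.75% contained TGANTCA, 29.5% AGGAAG, 12.4% TATAAA and 32.7% the GC box GGGCGG, each on either strand, and none of these motifs overlapped another in the printed windows. The window of the upstream Mmp12 start, at 7344397, held CTTCCT from 87 to 82 bases before it and no TGANTCA. The windows of 7 of the 10 genes were in the table, 8 in all, and TGANTCA was found in the 2 printed ones only. The windows of Timp1, Timp2, Timp3 and Mmp14 each contained the GC box, and those of Mmp3, Mmp8 and Mmp12 did not. These are matches of letters and not measured binding sites.

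With amiodarone, the lung library contained more mRNA of the MMPs of macrophages and neutrophils and less of Mmp2 and Mmp3, which are known as products of stromal cells. Mmp8, Mmp9 and Mmp12 were at least 2-fold higher than with vehicle, and none of the 10 genes was at least 2-fold lower. Among all 13402 genes with at least 1 FPKM in 1 of these libraries, 2.89% were at least 2-fold higher and 1.90% at least 2-fold lower. By the counting interval, 6 of the 10 genes were higher, 3 were lower and 1 (Mmp19) lay within counting error, against 19.6% higher and 30.1% lower over all genes. As differences in log2(FPKM + 1), the 10 genes had a median of 0.29 and all genes tested one of -0.05, and the median absolute difference was 0.47 against 0.16. The +1 makes the differences of low genes look smaller than they are.

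**Figure D1:**
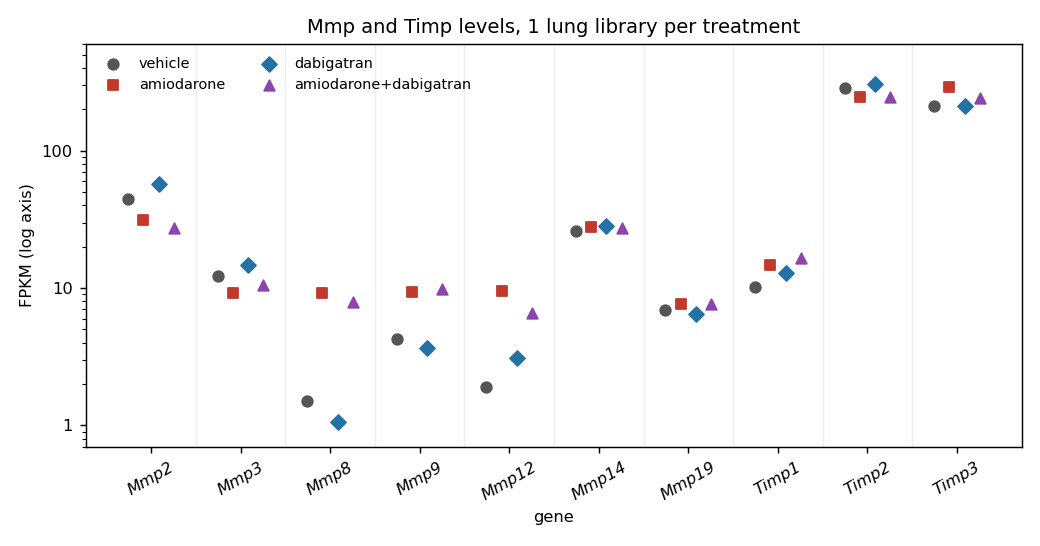
Level of each of the 10 genes (FPKM, log axis) in the vehicle, amiodarone, dabigatran and amiodarone+dabigatran libraries, 1 point per library. Timp2 and Timp3 were above 200 FPKM in every library, and Mmp8, Mmp9 and Mmp12 were higher in both libraries with amiodarone than in both without it.

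Mmp8, the neutrophil collagenase (Entrez 17394, chromosome 9 from 7558429 to 7568486), was at 1.5 FPKM with vehicle and 1.06 with dabigatran, and at 9.23 with amiodarone and 7.88 with amiodarone+dabigatran. These levels rest on 63 and 45 reads without amiodarone and on 415 and 358 reads with it. Both libraries with amiodarone were well above both without it. The ratio of amiodarone to vehicle was 6.15 (4.71 to 8.15), the largest among the 10 genes, and with dabigatran present it was 7.43 (5.44 to 10.4). The vehicle and dabigatran libraries did not differ beyond counting error (0.707, 0.471 to 1.05), and amiodarone+dabigatran was slightly lower than amiodarone (0.854, 0.739 to 0.986).

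Mmp12, the macrophage elastase (Entrez 17381, chromosome 9 from 7344397 to 7360461), differed between all 4 libraries. It was at 1.92 FPKM with vehicle and 3.10 with dabigatran, and at 9.46 with amiodarone and 6.58 with amiodarone+dabigatran, from 59, 98, 319 and 220 reads in this order. In the GENCODE annotation it overlaps Mmp1b on the other strand, which was not analysed here. In the order vehicle, dabigatran, amiodarone+dabigatran, amiodarone, each library was beyond counting error from the next. Amiodarone exceeded vehicle 4.93-fold (3.72 to 6.62). Dabigatran alone was 1.61 times vehicle (1.16 to 2.27), whereas dabigatran added to amiodarone was at 0.696 of amiodarone alone (0.583 to 0.829).

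Mmp9, or gelatinase B, which cuts denatured collagen and type IV collagen of basement membranes (Entrez 17395, chromosome 2 from 164940326 to 164955850), was at 4.28 FPKM with vehicle and 3.68 with dabigatran, and at 9.36 with amiodarone and 9.83 with amiodarone+dabigatran. The libraries fell into a low pair without amiodarone and a high pair with it. The ratio to vehicle with amiodarone was 2.19 (1.87 to 2.56), and that of amiodarone+dabigatran to dabigatran was 2.67 (2.27 to 3.15). Within each pair the libraries did not differ beyond counting error, with 0.860 (0.709 to 1.04) for dabigatran against vehicle and 1.05 (0.933 to 1.18) for amiodarone+dabigatran against amiodarone.

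Most markers of the cells that make these enzymes were higher in the same libraries. The 16 macrophage markers summed to 3711 FPKM with vehicle and 4032 with dabigatran, and to 5970 with amiodarone and 5938 with amiodarone+dabigatran. With amiodarone against vehicle, 7 of the 16 were at least 2-fold higher, against 2.89% of all genes. Gpnmb (a glycoprotein of macrophages) was 11.2 times vehicle (9.77 to 12.9), and Chil3 (a chitinase-like protein of macrophages) 8.10 times (7.76 to 8.46). The macrophage markers Csf1r and Cd14 were at 1.05 and 1.16 times vehicle. Ear2 (a ribonuclease of alveolar macrophages) was lower beyond counting error, at 0.629 (0.559 to 0.707), Fabp4 was at 0.857 (0.724 to 1.01), and no macrophage marker was at 0 in any library. Lyz2 made up most of the sum, and the other 15 markers summed to 314.8 FPKM with vehicle and 339.6 with dabigatran, and to 1063 with amiodarone and 1321 with amiodarone+dabigatran. In the combination against amiodarone, 8 of the 16 were higher and 3 lower beyond counting error, against 21.2% and 15.0% of all genes. Their median was 0.16 in log2(FPKM + 1), with Marco (a scavenger receptor) at 2.79 (2.32 to 3.36), whereas Mmp12 was lower. For neutrophils, the 11 markers other than Mmp8 summed to 116.3 FPKM with vehicle and 103.0 with dabigatran, and to 619.3 with amiodarone and 443.0 with amiodarone+dabigatran. Of the 9 that could be compared, 7 were at least 2-fold higher with amiodarone than with vehicle, among them Retnlg at 11.9 times (9.55 to 14.9) and S100a9 at 6.13 times (5.49 to 6.87). Ly6g and Mpo, also on the neutrophil list, had low levels. Ly6g was at 0.07, 0.20, 1.39 and 0.87 FPKM in the same order, with 22 reads with amiodarone against 1 with vehicle. Mpo was at 0 with vehicle, where a count of 0 allows up to 3 reads, and at most 0.06 elsewhere. The part of these markers in the levels of Mmp8, Mmp9 and Mmp12 was not tested.

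**Figure D2:**
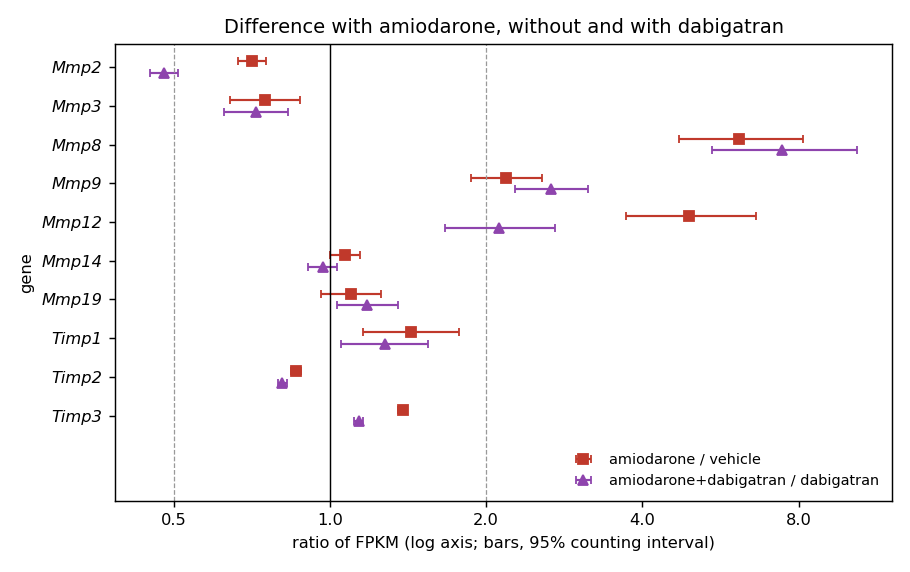
Ratio of FPKM (log axis) of amiodarone to vehicle and of amiodarone+dabigatran to dabigatran for the 10 genes, with bars for the 95% counting interval and dashed lines at 2-fold. Mmp8, Mmp9 and Mmp12 lie past 2-fold in both ratios, and Mmp2 lies below 1 in both.

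Mmp2, or gelatinase A, the most abundant MMP of the group in the vehicle library (Entrez 17390, chromosome 8 from 92827290 to 92853421), was at 44.2 FPKM with vehicle and 57.0 with dabigatran, and at 31.3 with amiodarone and 27.3 with amiodarone+dabigatran. In contrast to Mmp8, Mmp9 and Mmp12, both amiodarone libraries were low, and in the order dabigatran, vehicle, amiodarone, amiodarone+dabigatran each library was beyond counting error from the next. The ratio of amiodarone to vehicle was 0.707 (0.665 to 0.753), and that of dabigatran to vehicle was 1.29 (1.22 to 1.36). With amiodarone+dabigatran the level was at 0.480 of that with dabigatran (0.451 to 0.510) and at 0.874 of that with amiodarone (0.816 to 0.936).

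Mmp3, or stromelysin 1, a broad-range enzyme that also activates other proMMPs (Entrez 17392, chromosome 9 from 7445822 to 7455975), was at 12.2 FPKM with vehicle and 14.7 with dabigatran, and at 9.17 with amiodarone and 10.6 with amiodarone+dabigatran. Both libraries with amiodarone were lower than both without it. Amiodarone was at 0.750 of vehicle (0.642 to 0.875) and amiodarone+dabigatran at 0.721 of dabigatran (0.625 to 0.831). Dabigatran exceeded vehicle by a ratio of 1.2 (1.04 to 1.38), and its ratio in the presence of amiodarone, 1.15 (0.984 to 1.35), lay within counting error.

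Mmp14, the membrane-anchored enzyme that activates proMmp2 at the cell surface together with Timp2 (Entrez 17387, chromosome 14 from 54431598 to 54442456), differed least. It was at 26.1 FPKM with vehicle and 28.4 with dabigatran, and at 27.9 with amiodarone and 27.5 with amiodarone+dabigatran, so the highest library was 1.09 times the lowest. Amiodarone exceeded vehicle by a ratio of 1.07, whose interval had its lower bound just above 1 (1.002 to 1.14), and dabigatran exceeded vehicle by 1.09 (1.02 to 1.16). Neither ratio of amiodarone+dabigatran, 0.986 (0.926 to 1.05) to amiodarone and 0.969 (0.909 to 1.03) to dabigatran, was beyond counting error.

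Mmp19, a secreted enzyme that cuts components of basement membranes (Entrez 58223, chromosome 10 from 128790910 to 128800827), was at 6.96 FPKM with vehicle and 6.49 with dabigatran, and at 7.65 with amiodarone and 7.67 with amiodarone+dabigatran. The range was narrow, and amiodarone against vehicle lay within counting error (1.10, 0.961 to 1.26). Of its 4 ratios, that of amiodarone+dabigatran to dabigatran was beyond it, at 1.18 (1.03 to 1.35). Mmp19 lies inside the antisense gene Gm47093, which was not analysed here, and overlaps Tmem198b on the other strand, which was between 6.92 and 9.14 FPKM. Whether the reads were counted by strand is not given in the sources used here, so reads of the overlaps cannot be assigned to one of the genes.

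Among the inhibitors, Timp1, a secreted inhibitor that is induced in inflamed tissue (Entrez 21857, chromosome X from 20870166 to 20874737), was at 10.2 FPKM with vehicle and 13.0 with dabigatran, and at 14.7 with amiodarone and 16.5 with amiodarone+dabigatran. All 3 drug libraries were above vehicle, and the combination was the highest. Amiodarone exceeded vehicle 1.43-fold (1.16 to 1.77), and dabigatran exceeded vehicle 1.27-fold (1.02 to 1.58). Amiodarone+dabigatran was at 1.27 times dabigatran (1.05 to 1.55) and, within counting error, at 1.13 times amiodarone (0.94 to 1.35). Timp1 lies inside Syn1, a synapsin gene on the other strand, which was at most at 0.52 FPKM.

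Timp2, which inhibits MMPs and takes part in the activation of proMmp2 (Entrez 21858, chromosome 11 from 118301061 to 118355411), was at 285.8 FPKM with vehicle and 306.6 with dabigatran, and at 246.0 with amiodarone and 248.5 with amiodarone+dabigatran. It was the most abundant of the 10 transcripts with vehicle, above 98.8% of all genes in the table. As for Mmp2, the amiodarone libraries were the low ones, with 0.861 of vehicle (0.843 to 0.879) and 0.810 of dabigatran (0.794 to 0.827). Dabigatran was slightly above vehicle (1.07, 1.05 to 1.09). Cep295nl, inside Timp2 on the same strand, was at most at 0.97 FPKM.

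Timp3, the inhibitor that binds to the extracellular matrix and also blocks ADAM proteases (Entrez 21859, chromosome 10 from 86300412 to 86349505), was at 212.6 FPKM with vehicle and 212.3 with dabigatran, and at 293.6 with amiodarone and 241.6 with amiodarone+dabigatran. It exchanged rank with Timp2 in the amiodarone library, where it was the highest of the 10 genes. Amiodarone exceeded vehicle 1.38-fold (1.35 to 1.41), dabigatran was at 0.999 of vehicle (0.978 to 1.02), and the combination was below amiodarone (0.823, 0.808 to 0.838) and above dabigatran (1.14, 1.12 to 1.16). Timp3 lies inside Syn3 on the other strand, which was at most at 0.74 FPKM.

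Fibroblast markers differed between the libraries in part as Mmp2, Mmp3 and Timp2 did. The 12 genes summed to 2284 FPKM with vehicle and 2211 with dabigatran, and to 1959 with amiodarone and 2107 with amiodarone+dabigatran, with none at 0. Inmt made up most of each sum, at 1514 FPKM with vehicle, 1337 with dabigatran, 1377 with amiodarone and 1496 with amiodarone+dabigatran. With dabigatran Inmt was at 0.883 of vehicle (0.867 to 0.899), so the sums weigh this gene most. With amiodarone all 12 were below vehicle, with a median of -0.34 in log2(FPKM + 1). Of these, 10 were lower beyond counting error, against 30.1% of all genes. At least 2-fold lower were 2 (Col3a1 at 0.499 and Lum at 0.488 of vehicle), against 1.90% of all genes. With dabigatran against vehicle 6 of the 12 were higher and 2 lower beyond counting error, against 15.2% and 13.4% of all genes. Between amiodarone+dabigatran and amiodarone, 7 of the 12 fibroblast markers were higher and 2 lower beyond counting error, against 21.2% and 15.0% of all genes. Their median was 0.10 in log2(FPKM + 1), whereas Mmp2 was lower (0.874). Endothelial markers, 7 in all, had a sum between 1057 and 1311 FPKM. All 7 were higher beyond counting error with dabigatran than with vehicle, against 15.2% of all genes. With amiodarone+dabigatran all were lower than with amiodarone, 5 of them beyond counting error, against 15.0%. Against dabigatran, all 7 were lower beyond it with amiodarone+dabigatran, against 23.5%. With amiodarone against vehicle, 4 were higher and 2 lower beyond it, against 19.6% and 30.1%, whereas Mmp2 was lower. Of 5 smooth muscle markers all were lower beyond counting error with amiodarone than with vehicle (median difference -0.67), against 30.1% of all genes. The part of these cell types in the levels of Mmp2, Mmp3 and Timp2 was not tested.

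Markers of the other cell types were followed in the same way. The 8 alveolar markers had a median difference of 0.05 between amiodarone and vehicle. The 5 airway markers were all lower beyond counting error with amiodarone than with vehicle (median difference -0.67), against 30.1% of all genes. So were the 4 mesothelial markers (-0.63) and the 3 adipocyte markers that reached 1 FPKM (-0.91). At least 2-fold lower were 2 mesothelial and 3 adipocyte markers and no airway marker, against 1.90% of all genes. With amiodarone+dabigatran against amiodarone, 3 of the 4 mesothelial markers were at least 2-fold higher, against 0.656% of all genes. The median of the airway markers was 0.17, with 3 higher and 2 lower beyond counting error, against 21.2% and 15.0% of all genes. That of the adipocyte markers, 0.61, rests on the 2 that could be compared, 1 of them beyond counting error.

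**Figure D3:**
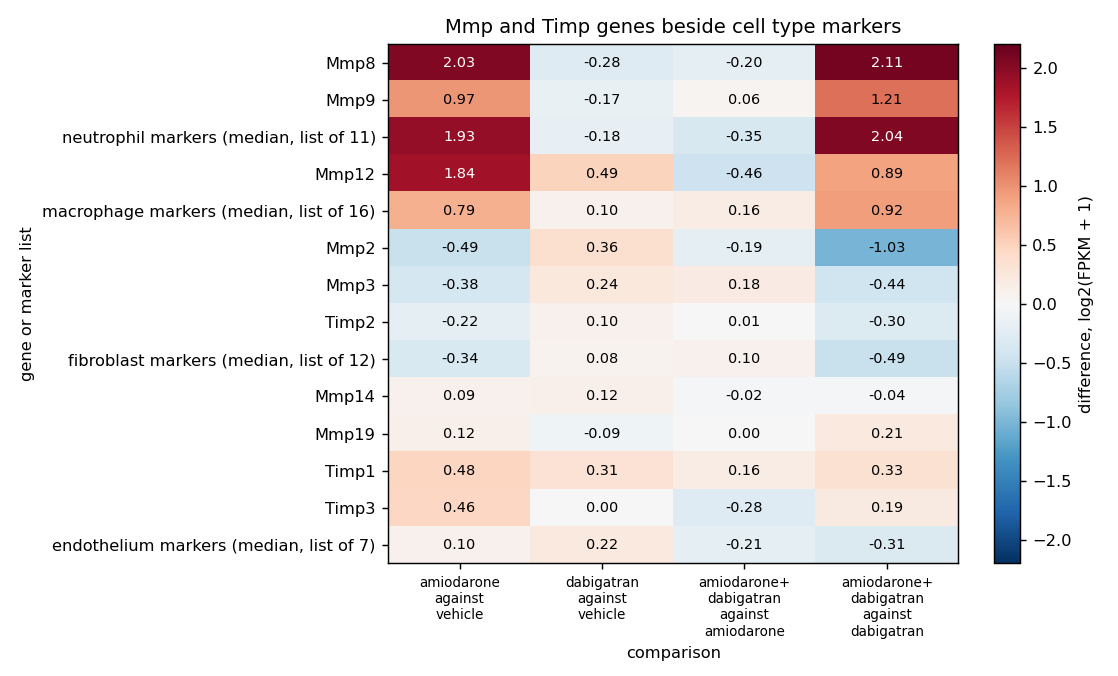
Difference on the log2(FPKM + 1) scale in each of the 4 comparisons for the 10 genes, and the median difference of the neutrophil, macrophage, fibroblast and endothelial markers. The medians of the neutrophil and macrophage markers share the positive values of Mmp8, Mmp9 and Mmp12 in the comparisons of amiodarone with vehicle and of amiodarone+dabigatran with dabigatran. The fibroblast median and Mmp2 are negative there.

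With dabigatran alone, differences from vehicle were small. None of the 10 genes was 2-fold higher or lower, where 0.359% and 0.389% of the 13373 genes tested were. By counting error, Mmp2, Mmp3, Mmp12, Mmp14, Timp1 and Timp2 were higher, which is 6 of 10 against 15.2% of all genes, and none was lower, against 13.4%. Mmp14 and Timp2 were called at ratios of 1.09 and 1.07, from 1711 and 17879 reads with vehicle. The 4 within counting error were Mmp8, Mmp9, Mmp19 and Timp3. In log2(FPKM + 1) the median difference was 0.11 for the 10 genes and 0.00 for all genes tested, and Mmp12 had the largest ratio.

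When dabigatran was added to amiodarone, no gene of the group was 2-fold different from amiodarone alone, where 0.656% of 13261 genes were higher and 0.664% lower. Mmp2, Mmp8, Mmp12 and Timp3 were lower beyond counting error, 4 of 10 against 15.0% of all genes, and none was higher, against 21.2%. The other 6 were within counting error. In log2(FPKM + 1) the median difference was -0.01, against 0.03 for all genes tested. Mmp8 and Mmp12 with the combination remained above both libraries without amiodarone, and Mmp9 was within counting error of its level with amiodarone alone.

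With dabigatran in both libraries, the amiodarone difference had the same leading genes. Mmp8, Mmp9 and Mmp12 were at least 2-fold higher with amiodarone+dabigatran than with dabigatran and Mmp2 was at least 2-fold lower, where 1.94% and 1.05% of 13379 genes were. Beyond counting error, 6 genes were higher and 3 lower, against 19.5% and 23.5% of all genes. The higher ones were Mmp8, Mmp9, Mmp12, Mmp19, Timp1 and Timp3, the lower ones Mmp2, Mmp3 and Timp2, and Mmp14 was within counting error. The ratio for Mmp12 was 2.12 (1.67 to 2.72), smaller than the 4.93 without dabigatran. This comparison shares no library with that of amiodarone and vehicle, and 9 of the 10 genes had the same direction in both, Mmp14 being the exception, against 64.4% of the 13245 genes tested in both.

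**Figure D4:**
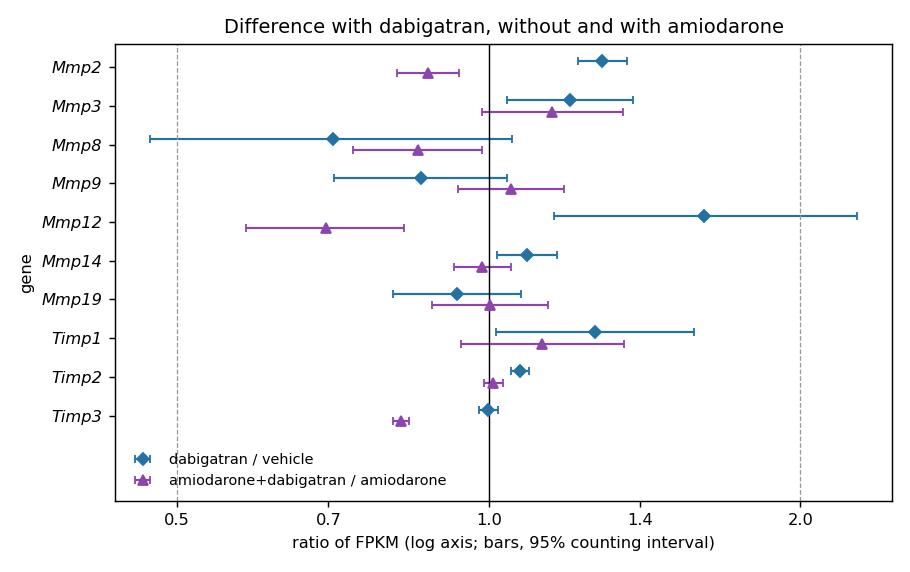
Ratio of FPKM (log axis) of dabigatran to vehicle and of amiodarone+dabigatran to amiodarone for the 10 genes, with bars for the 95% counting interval and dashed lines at 2-fold. No ratio reaches 2-fold, and Mmp2 and Mmp12 lie above 1 without amiodarone and below 1 with it.

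The ratio for dabigatran with amiodarone was divided by that without amiodarone to describe how far the 2 differ. A value of 1 means that dabigatran went with the same ratio in both settings. It was 0.431 (0.299 to 0.621) for Mmp12, 0.679 (0.622 to 0.740) for Mmp2, 0.824 (0.801 to 0.847) for Timp3 and 0.941 (0.914 to 0.970) for Timp2, and the interval of Mmp14 also excluded 1 (0.906, 0.827 to 0.992). Mmp3, Mmp8, Mmp9, Mmp19 and Timp1 had intervals that include 1. These intervals are approximations on the log scale from the reads of all 4 libraries and again hold counting error only.

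The summed level of the 7 MMPs was nearly the same in 3 libraries, 97.2 FPKM with vehicle, 104.0 with amiodarone and 97.3 with amiodarone+dabigatran, and was highest with dabigatran, at 114.3 FPKM. The composition differed more than the sum. Mmp8, Mmp9 and Mmp12 together made up 7.92% of the MMP sum with vehicle and 6.86% with dabigatran, but 27.0% with amiodarone and 25.0% with amiodarone+dabigatran. Mmp2 made up 45.5%, 30.1%, 49.8% and 28.1% in the order vehicle, amiodarone, dabigatran, amiodarone+dabigatran. These shares are of the 7 genes, which leave out Mmp15, at 68.2 FPKM with vehicle. Over all 20 Mmp genes in the table the sum was 212.9 FPKM with vehicle and 231.7 with dabigatran. It was lower with amiodarone, at 195.5 FPKM, and with amiodarone+dabigatran, at 195.7, so the 3 genes make up smaller shares of it.

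The 3 TIMPs summed to 508.6 FPKM with vehicle and 531.9 with dabigatran, and to 554.3 with amiodarone and 506.6 with amiodarone+dabigatran, so that TIMP transcripts outweighed those of the MMPs in every library. The MMP sum divided by the TIMP sum was 0.191 with vehicle and 0.215 with dabigatran, and 0.188 with amiodarone and 0.192 with both drugs. Timp3 contributed 41.8% of the TIMP sum with vehicle and 39.9% with dabigatran, and 53.0% with amiodarone and 47.7% with amiodarone+dabigatran, and Timp1 never more than 3.26%. The sums weigh transcripts, not enzyme activity.

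**Figure D5:**
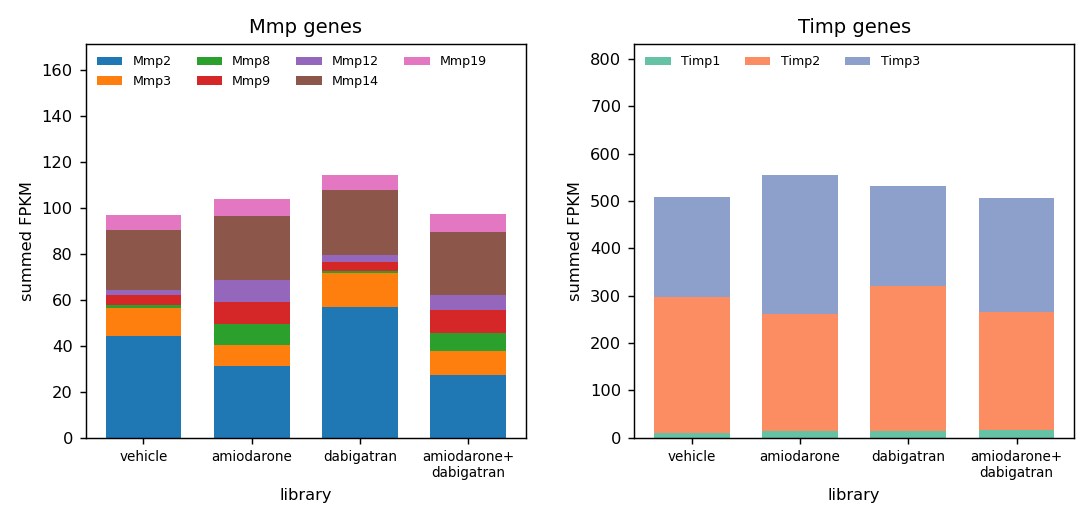
Summed level of the 7 MMPs and of the 3 TIMPs in each library (FPKM, bars from 0), divided by gene. The MMP sums run from 97.2 to 114.3 FPKM, while the share of Mmp8, Mmp9 and Mmp12 is 27.0% with amiodarone and 7.92% with vehicle.

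Of the other MMP genes, 13 of 16 listed were in the table and 6 reached 1 FPKM, and none of these was 2-fold different in any of the 4 comparisons. With amiodarone against vehicle, Mmp28 (epilysin) was at 1.37 (1.23 to 1.53), whereas Mmp11 (stromelysin 3) was at 0.719 (0.645 to 0.8), Mmp15 (a membrane-type enzyme) at 0.732 (0.702 to 0.763) and Mmp23 at 0.671 (0.554 to 0.812). The cluster on chromosome 9, from 7272514 to 7699585, holds 10 MMP genes in the RefSeq annotation, 7 of them in the table. Besides Mmp12, Mmp3 and Mmp8, Mmp13 was at 0.20, 0.55, 0.11 and 0.30 FPKM and Mmp27 at 0.30, 0.34, 0.32 and 0.13 FPKM in the order vehicle, amiodarone, dabigatran, amiodarone+dabigatran, and Mmp10 and Mmp7 had 1 read each over all 4 libraries. The cluster was therefore not uniformly higher with amiodarone. Timp4, the fourth TIMP, was between 2.49 and 2.90 FPKM.

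Other genes that control MMPs were followed in a list of 20 activators and inhibitors. With amiodarone against vehicle, 2 of the 16 that could be compared were at least 2-fold higher and 1 lower, against 2.89% and 1.90% of all genes. Lcn2 (lipocalin 2, which binds Mmp9 and protects it from degradation) was at 157.2 FPKM with vehicle and 154.8 with dabigatran, and at 920.9 with amiodarone and 320.1 with amiodarone+dabigatran. Its amiodarone level was 5.86 times vehicle (5.60 to 6.13), and the combination was at 0.348 of amiodarone (0.336 to 0.359) and 2.07 times dabigatran (1.97 to 2.18), whereas Mmp9 was within counting error between both amiodarone libraries. Plat (tissue plasminogen activator) was at 2.02 times vehicle (1.84 to 2.22) with amiodarone. Tfpi2, an inhibitor of plasmin and of several MMPs, was at 0.5 (0.255 to 0.942). Thbs1 (thrombospondin 1) was at 0.341 (0.327 to 0.356) with amiodarone+dabigatran against dabigatran. None of the list was 2-fold different with dabigatran against vehicle.

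Of 18 ADAM and ADAMTS metalloproteinases, relatives of the MMPs of which Timp3 inhibits some, 15 could be compared. None was 2-fold different with amiodarone or dabigatran against vehicle or with the combination against amiodarone, and Adamts1 was at 0.484 (0.452 to 0.518) with the combination against dabigatran. Among 16 other matrix-degrading proteases, 3 of the 11 compared were at least 2-fold higher with amiodarone than with vehicle, against 2.89% of all genes. Ctsk (cathepsin K, a collagenase and elastase of macrophages and osteoclasts) was at 9.74 FPKM with vehicle and 10.6 with dabigatran, and at 73.9 with amiodarone and 51.6 with amiodarone+dabigatran, a ratio to vehicle of 7.59 (6.68 to 8.66) whose interval overlaps that of Mmp8. Ctss (cathepsin S) was at 2.94 times vehicle (2.79 to 3.11) and Prtn3 (proteinase 3 of neutrophils) at 2.39 times (1.07 to 5.88), with a wide interval. With amiodarone+dabigatran against dabigatran the same 3 genes were at least 2-fold higher, as was Ctsd (cathepsin D, 2.11, 2.06 to 2.16), against 1.94% of all genes.

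Of 17 MMP substrates of the matrix compared between amiodarone and vehicle, 5 were higher and 11 lower beyond counting error, against the 19.6% and 30.1% of all genes given above, with a median of -0.30 in log2(FPKM + 1). Their sum hardly differed, at 0.972 of vehicle. Spp1 (osteopontin) was the only one at least 2-fold higher (2.25, 2.10 to 2.41), and Col3a1 the only one at least 2-fold lower (0.499, 0.482 to 0.516). Eln (elastin, the substrate of Mmp12) was at 1.24 times vehicle. With dabigatran against vehicle 11 were higher and 1 lower beyond counting error, against 15.2% and 13.4% of all genes. With amiodarone+dabigatran against dabigatran 3 were higher and 14 lower, against 19.5% and 23.5%. Spp1 was at 2.68 (2.48 to 2.90) and Col3a1 at 0.495 (0.480 to 0.510) there. Of these substrates, 4 also stand among the fibroblast markers (Col1a1, Col1a2, Col3a1 and Dcn).

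Among 13182 genes whose mean reached 1 FPKM, the 5 nearest to Mmp12 in their log2(FPKM + 1) differences from vehicle over the other 3 libraries were Ly6c2 (a surface antigen of monocytes), Ccl3 (a chemokine), Zbtb16 (a transcription factor), Serpina3f (a serine protease inhibitor) and Oas1g (of the interferon-induced oligoadenylate synthetases), at Euclidean distances of 0.243 to 0.365. Ly6c2 was at 28.2, 115.0, 34.9 and 75.8 FPKM in the order vehicle, amiodarone, dabigatran, amiodarone+dabigatran. Nearest to Mmp2 were Nrarp, Fbln1 (the matrix protein fibulin 1), Otx1, Spock2 (a matrix proteoglycan) and Igfbp3 (an insulin-like growth factor binding protein), at 0.163 to 0.192, with Fbln1 at 46.1, 33.5, 52.9 and 28.7 FPKM in that order. Nearest to Timp1 were Mfsd7a, Gpx3 (a secreted glutathione peroxidase), Zranb3, Fam111a and Gusb (a lysosomal glucuronidase), at 0.0678 to 0.132. Likeness over 3 differences that share the vehicle library describes these libraries only.

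The study designed qRT-PCR primers for Mmp12 and Timp1, shown because they tell which part of each transcript they read. They are written 5′ to 3′, with a capital where the primer differs from the GENCODE transcript.
Mmp12 forward: ggtggtacactagcccatgc
Mmp12 reverse: aggaGgaggtttgtgccttga
Timp1 forward: tcatcacgggccgcctaa
Timp1 reverse: gtacgccagggaaccaagaa
The Mmp12 pair matched 5 of the 7 annotated transcripts, spanning 110 bases, with the reverse primer across the junction of exons 4 and 5 in 3 of the 5 and with 1 mismatch, G5A, counted from the 5′ end of the primer (the primer's base first, then that of the transcript read on the same strand). The Timp1 pair matched both annotated transcripts without mismatch and spanned 70 bases, with the forward primer across the junction of exons 4 and 5. The FPKM values count reads over all transcripts of a gene, and the qRT-PCR values were not used here.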

How the data were processed

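Lung poly(A)+ RNA of 4 libraries, 1 per treatment group, was sequenced with DNBseq. Reads were mapped by the authors to GRCm38.p6 with HISAT and to reference genes with Bowtie2, and expression was estimated with RSEM. The deposited table holds for each library an estimated count of reads per gene and a normalized value, which the authors do not name and which is read here as FPKM, since reads per unit of it rise from library to library with the total of reads. The 8 columns of means over 2 libraries were not used.

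Groups were taken from the labels. The members and gene lists were chosen with earlier results of these data known, and cover other Mmp genes, Timp4, MMP inhibitors and activators, ADAM and ADAMTS genes, other matrix-degrading proteases, matrix substrates and markers of macrophages, neutrophils, fibroblasts, smooth muscle, alveolar and airway epithelium, endothelium, mesothelium and adipocytes. Named genes of a list were those at least 2-fold different in 1 of the 4 comparisons, or markers and relatives given for context and chosen after their values were seen. For Mmp12, Mmp2 and Timp1 the 5 nearest genes were named.

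Ratios of FPKM were counted over genes that reached 1 FPKM in either library compared. Exact Clopper-Pearson intervals at 95% used reads rounded to whole numbers. Of 10 genes, 2 (Mmp14 and Mmp19) had fractional reads in 1 library or more, as RSEM divides reads that match several genes. Sequenced fragments are not independent molecules, so intervals cover counting error only. Coordinates and promoters came from RefSeq (GRCm38.p6), where 17669 identifiers were found, and transcripts and overlaps from GENCODE. The alternatives were rescaling by the median ratio over 12728 genes, reads scaled to each library's total, pseudocounts of 1 and 0.1, 1.5-fold, other filters, and all Mmp and Timp genes in the sums. Rescaled intervals were added after seeing the data. The procedure was tested on simulated data, in which reads varied by counting error only, so this does not cover variation between mice. Python 3.11.15, pandas 2.3.3, numpy 2.4.6 and SciPy 1.17.1 were used. Protein sequences were not analysed here.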

Additional observations from a re-analysis of the deposited data

Results flagged for a closer look

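Dabigatran went with opposite directions in the absence and the presence of amiodarone for 5 of the 10 genes, a share near that of all genes, of which 54.0% of the 13098 tested in both comparisons did so. With 1 library in each group every sample of a group moves one way by construction, and the difference was not tested. For Mmp12 the ratio for dabigatran with amiodarone was 0.431 times that without it (1.61 without and 0.696 with amiodarone), and for Mmp2 it was 0.679 times (1.29 and 0.874). Both component ratios of these genes were beyond counting error. For Mmp14 the quotient was 0.906 (1.09 and 0.986), with the second ratio within counting error. For Mmp9 it was 1.22 (0.860 and 1.05) and for Mmp19 1.08 (0.932 and 1.003), where all 4 component ratios lay within counting error.

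Amiodarone went with opposite directions without and with dabigatran for Mmp14 alone, with a quotient of 0.906 (1.07 and 0.969), which was not tested, and the second ratio was within counting error. Macrophage and neutrophil markers stood beside Mmp12 in these libraries, with summed levels of 5970 and 619.3 FPKM with amiodarone and of 5938 and 443.0 FPKM with amiodarone+dabigatran. Lyz2 made up most of the macrophage sum. Of the 16 macrophage markers, 8 were higher and 3 lower beyond counting error with the combination than with amiodarone, against 21.2% and 15.0% of all genes. Their median was 0.16 in log2(FPKM + 1), against 0.03 for all genes tested, whereas Mmp12 was lower. Endothelial markers stood beside Mmp2, summing to 1133 FPKM with vehicle, 1311 with dabigatran, 1201 with amiodarone and 1057 with amiodarone+dabigatran. Their part in the differences was not tested.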

How the results depend on the processing

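No paired analysis was possible because each group has 1 library, and for the same reason no library could be left out. Of 160 ratios under rescaling by the median ratio, reads scaled to library totals and pseudocounts of 1 and 0.1, 153 stayed inside their counting interval and 7 did not, 4 of them for Timp2 and Timp3 under rescaling and 3 for Mmp8 (4.09 and 4.31) and Mmp12 (3.58) on the log2(FPKM + 1) scale. No ratio beyond counting error changed direction. Rescaling turned Mmp19 and Timp2 in the comparison of the combination with amiodarone (to 0.976 and 0.983), both within counting error, and changed none of 40 calls by the counting interval. At 1.5-fold, 1 gene (Mmp12) was higher with dabigatran than with vehicle. On the log2(FPKM + 1) scale Mmp9 against vehicle and Mmp12 of the combination against dabigatran were under 2-fold, leaving 2 higher genes in each comparison instead of 3. The other counts had the values given above. The MMP to TIMP quotient depended on what was summed. In the order vehicle, amiodarone, dabigatran, combination it was 0.147, 0.137, 0.165 and 0.144 from reads scaled to library totals, which weigh long transcripts more, and 0.417, 0.351, 0.433 and 0.384 over all 20 Mmp and 4 Timp genes of the table. Dabigatran was highest and amiodarone lowest in each version. Depth limits Mmp8 and Mmp12 most, with 45 to 63 reads in the lowest libraries.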
